A study of Homo sapiens with 4 samples.

Results

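The region described here is a 13 Mb stretch of the long arm of human chromosome 8, chr8:70000001-83000000 in the hg38 build, which spans bands 8q13 to 8q21. It was chosen by the density of accessible-chromatin peaks in these same libraries. Its members are 7382 accessible sites of 307691 in all. A site is one stretch of overlapping ATAC-seq peaks, joined over the libraries on an overlap of at least 1 bp, that lies wholly between those limits. The region, called the 8q block below, covers 0.429% of the genome's length and holds 2.399% of its sites. That density is given as a description and no test was made of it.

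The libraries came from SKBR3, an established HER2-amplified breast cancer cell line of luminal epithelial character. Both untreated libraries and both TWEAK libraries were made from this one line, so nothing here extends to other cells. TWEAK cells received the recombinant cytokine at 10 ng/ml for 48 h, with a fresh dose after 24 h, following 8 h of starvation in optimem. The growth protocol is worded identically for the untreated samples, and the labels do not say how the 2 replicates of a group were separated. The study's methods call the replicates of its cell line ATAC-seq biological. Promoter peaks were present in all 4 libraries at 9 of 10 luminal epithelial markers, among them ERBB2, KRT8 and GATA3, with CDH1 the exception. They were also present at 2 of 4 leukocyte, 3 of 4 fibroblast and 3 of 4 endothelial markers, so an open promoter alone did not mark a cell type.

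In ATAC-seq, the Tn5 transposase cuts and tags DNA that nucleosomes leave exposed, and sites with many tagged fragments are called as peaks. Promoters and enhancers bound by transcription factors give tall, narrow peaks. Read numbers also scale with how many copies of a stretch of DNA a cell carries, and the long arm of chromosome 8 is a common site of extra copies in breast cancer. TWEAK is a TNF-family cytokine that binds the receptor Fn14 and signals mainly through NF-kB. The DNA copy number of these cells was not analysed here. The share of cells in which a site is open and how open it is in each cell cannot be told apart in bulk libraries.

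Each deposited list gave every peak one fixed width and a −log10 p-value. From that value the pileup (the number of fragments stacked at the peak) and the single background level of each list could be recovered. The background was 3.59 and 2.24 fragments in untreated replicates 1 and 2, and 2.63 and 1.85 in TWEAK replicates 1 and 2. TWEAK replicate 2 thus had the lowest background, and it also had the shortest list. One background served the whole list, so a peak in the 8q block was not set against the read level around it. Peak height is given below as pileup over background, and as rank percentile, the percentage of peaks in the same list that are no higher, with ties at their mean rank.

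The 8q block was not evenly dense. Across its 65 bins of 200 kb the median was 137 sites, against 13 over all 14590 bins of the genome and 12 over the rest of chromosome 8. Of the 148 bins genome-wide at or above the 99th percentile of 140 sites, 32 lay in the block. At the other end, 7 bins of the block held no more than the genome's median. The 3 fullest bins held 187 sites (80.6 to 80.8 Mb, mostly inside ZNF704), 184 (80.4 to 80.6 Mb, around ZBTB10) and 183, the last number shared by the bins from 79.8 to 80.0 and from 80.0 to 80.2 Mb. The 3 emptiest held 2, 3 and 4 sites, at 82.2 to 82.4, 82.0 to 82.2 and 71.2 to 71.4 Mb. The limits of the block themselves fell in ordinary chromatin, with 17 sites in the last bin before it and 15 in its first, and with 16 in its last and 11 in the bin beyond.

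Sharp changes of density cut the block into 7 segments. Edges whose denser side was below 2 times the genome's median bin were not used for this. The 2-fold rule also found such edges in segment 7, at 81.79 and 82.63 Mb, between sparse stretches of 8.58 and 1.58 and then 1.58 and 8.67 peaks per 200 kb. Segments 2, 4 and 6 were dense, and segments 1, 3, 5 and 7 were sparse or intermediate. Segment 2 (70.31 to 71.15 Mb) held 571 and 581 peaks in the untreated libraries and 574 and 532 in the TWEAK libraries. Segment 4 (71.75 to 77.54 Mb), the longest, held 3464 and 3438 untreated and 3152 and 2590 TWEAK peaks. Segment 6 (78.51 to 80.89 Mb) held 1669 and 1600 untreated and 1602 and 1507 TWEAK peaks. In these dense segments peaks covered 22.4 to 35.1% of all bases, against 3.16 to 3.70% of the genome outside the block. Segment 7 (80.89 Mb to the end of the block) returned to 8.34 to 9.38 peaks per 200 kb, below the 12.6 to 14.8 per 200 kb outside the block. The plot of peaks along the block shows the 3 plateaus and the steep walls between them in every library.

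**Figure D1:**
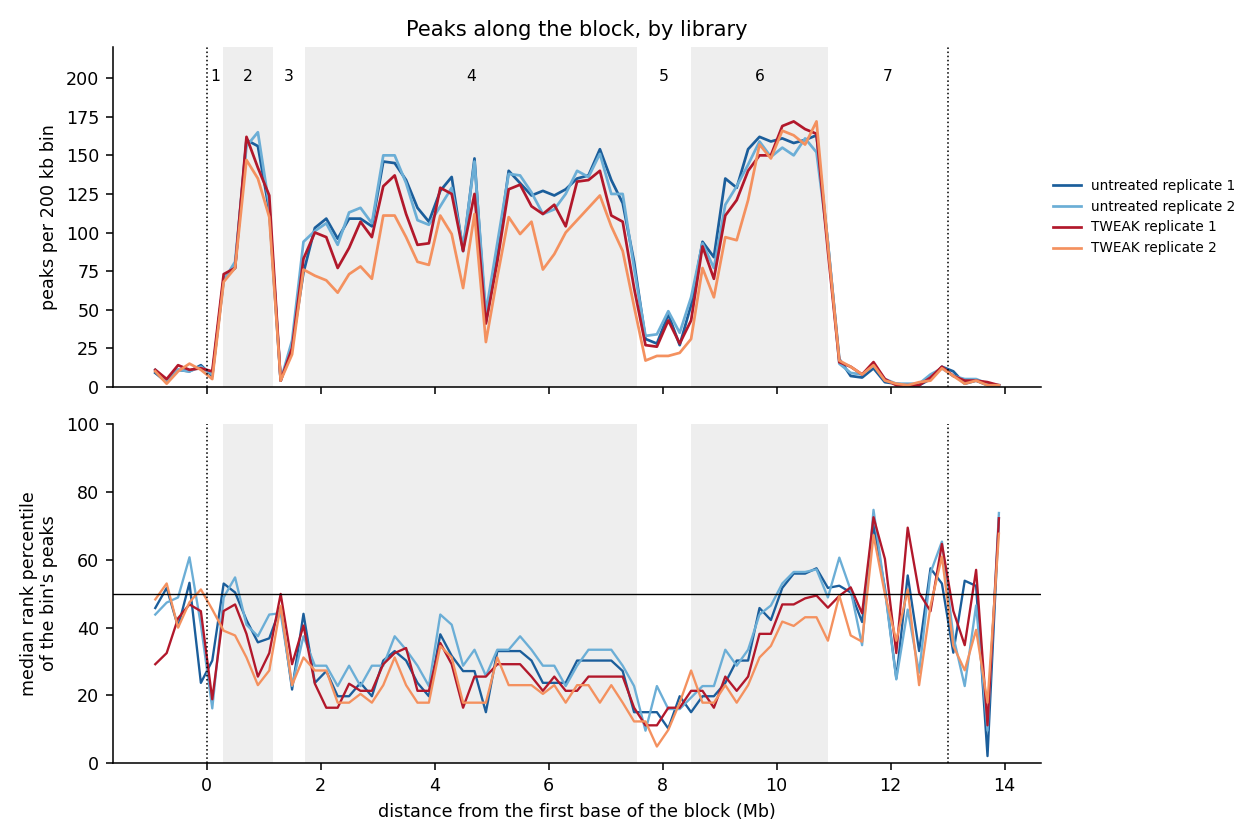
Upper panel, peaks per 200 kb bin in each library against the distance from the first base of the 8q block in Mb; lower panel, the median rank percentile of the peaks in each bin, with a line at 50. Grey marks dense segments 2, 4 and 6, the numbers name the segments and dotted lines mark the limits of the block. The 4 libraries share the same plateaus, and the median rank lies mostly under 50 in segment 4 and climbs along segment 6.

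The walls stood at nearly the same place in each library when each was placed alone in steps of 10 kb. The wall at 70.31 Mb lay inside NCOA2, the gene of a nuclear receptor coactivator, between annotated transcript starts of that gene 64.6 kb away on the sparse side and 92.1 kb away on the dense side, and the density went there from 7.32 to 11.2 peaks per 200 kb on one side to 123 to 134 on the other. The dense side holds the start of the whole gene and the sparse side its end. The wall at 80.89 Mb, 15.2 kb beyond the start of ZNF704 and 85.8 kb short of the nearest annotated transcript start of PAG1, went from 161 to 171 peaks per 200 kb to at most 21.5. Both walls, and those at 71.15 and 71.75 Mb, had the same position in all 4 libraries. On merged sites the last lay at 71.62 Mb, or 71.5 Mb with 100 kb bins, and with 1 Mb windows neither end of segment 3 was found. The walls of segment 5 were looser, spreading over 10 kb at 77.54 Mb and 80 kb at 78.51 Mb. The division into 7 segments, chosen after the data were seen, placed walls by peaks. Placed by merged sites, the edges included none at segment 5, although it held 66.0 sites per 200 kb against 146 and 163 in segments 4 and 6, and the wall at 77.54 Mb came back on merged sites without each library in turn.

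Segment 3 covers the gene of EYA1, a transcriptional coactivator and phosphatase of ear and kidney development. It held the widest peak-free interval between the outer walls, 136 kb between 71.36 and 71.50 Mb, in all 4 libraries. The next longest, from 71.15 to 71.25 Mb, was 98.5 to 99.6 kb long in each library. EYA1 had 29 and 32 peaks in its 395 kb untreated and 28 and 23 with TWEAK. KCNB2, a potassium channel gene of similar length (401 kb) in dense segment 4, had 208 and 216 untreated and 195 and 144 with TWEAK.

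Most peaks of the 8q block were low. Between 72.1 and 79.1% lay below the 50th percentile of their list, against 48.7 to 49.6% outside the block. Median pileup over background was 5.02 and 5.37 in the untreated and 5.32 and 6.498 in the TWEAK libraries, while outside the block it was 7.53 and 8.05 and then 8.74 and 11.4. Low peaks alone did not make up the density, however. Peaks above the 75th percentile of their list were 2.14 and 2.19 times as dense in the block as outside it in the untreated libraries and 2.21 and 2.27 times in the TWEAK libraries, compared with 5.96 to 6.92 times for all peaks and 8.26 to 11.4 times for those under the 25th.

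**Figure D2:**
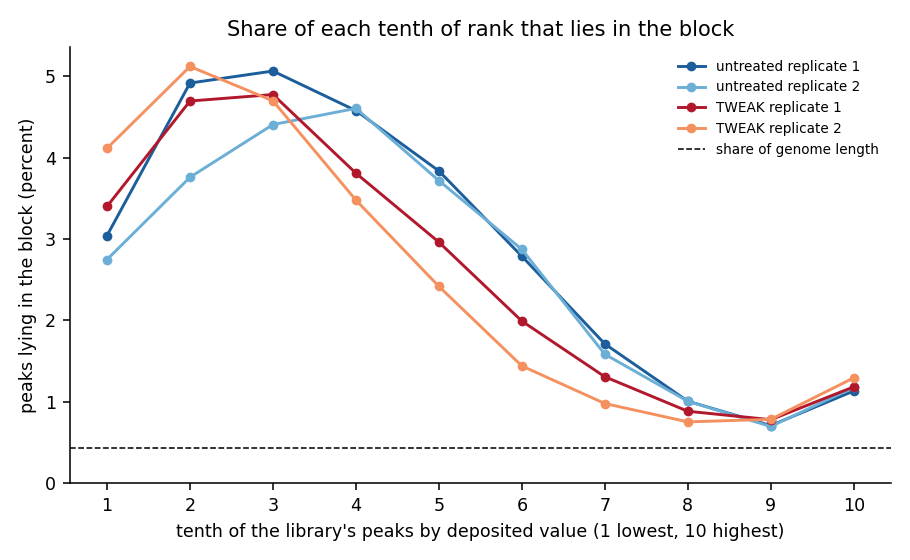
Percent of the peaks in each band of 10 rank percentiles that lie in the 8q block (vertical axis) against the band, from the lowest deposited values (1) to the highest (10), for each library; the dashed line is the block's share of genome length, 0.429%. The share peaks at 4.61 to 5.12% in bands 2 to 4, drops to 0.698 to 0.786% in band 9 and turns up to 1.13 to 1.30% in band 10.

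The share of the block thus did not decline steadily with rank. It was lowest between the 80th and 90th percentiles in 3 of the libraries and just below them in TWEAK replicate 2, and was larger again among the very highest peaks. Of the 100 highest peaks of a list, 21 in each untreated library and 24 and 25 in the TWEAK libraries lay in the block. Of the 1000 highest, 74 and 74 and then 78 and 79 did. Of these, 39 to 42 were in segment 6 and 23 to 25 in segment 4, and none were in segments 1, 3, 5 or 7. Promoters accounted for 23 to 25 of them, and 33 to 39 were intergenic.

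The 5 shared sites with the highest ranks were led by an intronic site of ZNF704, a zinc-finger gene, at chr8:80753027-80753543. Its lowest rank percentile in any library was 99.9985. Next came an intronic site of TPD52, whose product is a vesicle-trafficking protein often raised in breast and prostate tumours, at chr8:80084229-80084750. The other 3 were the promoters of ZBTB10, NCOA2 and PEX2, at chr8:80485256-80485780, chr8:70401957-70402488 and chr8:76999978-77000488. All but those of NCOA2 and PEX2 lie in segment 6.

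The block contains the start sites of 48 protein-coding genes. A promoter peak, meaning one within 1 kb of an annotated transcript start, was present in all 4 libraries at 41 of them (85.4%), against 76.6% of all protein-coding genes. At 29 (60.4%) the promoter peak was above the 75th percentile in every library, against 58.9% of all genes. The other 7 genes had none in any library. These were PRDM14, a regulator of pluripotency, PI15, the fatty acid binding protein genes PMP2, FABP9 and FABP4, the transporter gene SLC10A5 and the sorting nexin gene SNX16. Some neighbours share one promoter peak, as LACTB2 with XKR9, RPL7 with RDH10, ELOC with TMEM70 and GDAP1 with JPH1, so the 41 genes had 36 distinct sets of values.

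The share of open promoters was near that of the genome, but the height of the tall ones was not. Among the 25 genes of dense segments 2, 4 and 6 with a promoter peak above the 75th percentile in all libraries, the median pileup over background was 325 and 374 in the untreated and 337 and 358 in the TWEAK libraries. Segments 1, 3 and 5 had no such gene. In segment 7, beyond the wall at 80.89 Mb, there were 4 (PAG1, IMPA1, CHMP4C and ZFAND1), and there it was 51.7 and 60.6 and then 62.1 and 64.7. These were near the values of the 351 such genes elsewhere on chromosome 8, at 52.7 and 62.2 and then 59.2 and 61.7, and the 11377 on other chromosomes, at 57.7 and 66.7 and then 63.8 and 67.7. These are the same libraries and the same kind of value that chose the block, so no test was made.

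**Figure D3:**
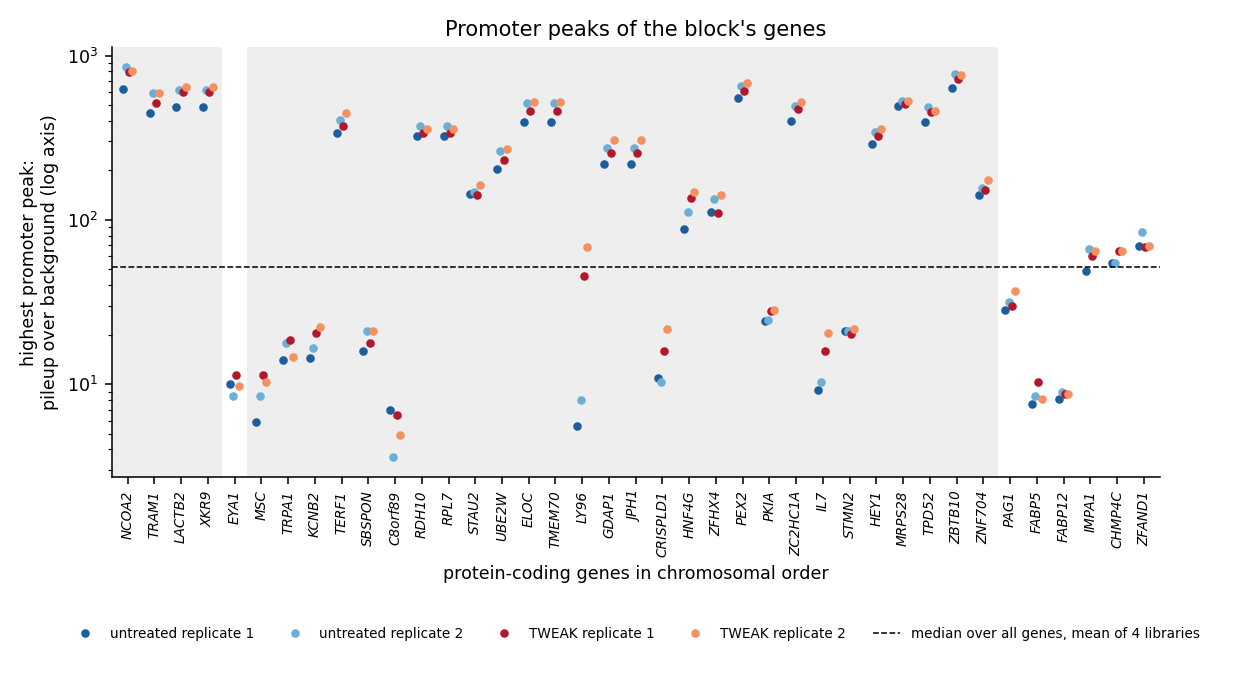
Pileup over background (log axis) of the highest promoter peak in each library, for named protein-coding genes of the 8q block with a promoter peak in all libraries, in chromosomal order; grey marks genes of dense segments 2, 4 and 6, and the dashed line is the median over all genes with such a peak, as the mean of the 4 libraries. Apart from LY96, whose untreated and TWEAK points lie furthest apart, genes of the dense segments stood either at 88.1 and above or at 28.2 and below.

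Among the transcription factors and cofactors, 8 of 9 had a promoter peak in all libraries and 6 were above the 75th percentile throughout. NCOA2 had the highest promoter of this list in 3 of the libraries, with pileup over background of 624 and 853 untreated and 791 and 807 with TWEAK. ZBTB10, a zinc-finger repressor, stood at 639 and 768 and then 719 and 756. HEY1, a Notch target, stood at 289 and 342 and then 325 and 355. ZNF704 (142 and 156, then 152 and 175) and ZFHX4 (112 and 134, then 110 and 142) were intermediate. MSC, the gene of a repressor of muscle differentiation, was low at 5.85 and 8.50 and then 11.4 and 10.3.

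All 8 genes of the list on growth and cancer amplicons had promoter peaks above the 75th percentile in every library. TRAM1, which helps proteins enter the endoplasmic reticulum, stood at 445 and 590 untreated and 513 and 592 with TWEAK. TPD52 stood at 393 and 486 and then 453 and 460. ELOC, a subunit of elongin ubiquitin ligases, stood at 396 and 518 and then 461 and 518. The list also included the telomere protein gene TERF1 (336 and 404, then 371 and 448), the ribosomal protein genes RPL7 and MRPS28, the RNA transport gene STAU2 and the ubiquitin-conjugating enzyme gene UBE2W, none below 141 in any library. The list was drawn up from genes known for broad expression or amplification, so its count is not independent evidence.

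Of the lipid, retinoid and peroxisome genes, 6 of 9 had a promoter peak in all libraries. PEX2, needed to build peroxisomes, stood at 553 and 649 untreated and 607 and 680 with TWEAK. RDH10, which makes retinal, shares the RPL7 promoter at 325 and 374 and then 337 and 358. In contrast, FABP5 in segment 7, a fatty acid binding protein gene of epithelia, stood at only 7.53 and 8.50 and then 10.3 and 8.12. Of the nerve, muscle and sensory genes, 7 of 8 had a promoter peak in all libraries but 3 exceeded the 75th percentile throughout, JPH1, GDAP1 and PKIA. TRPA1, an irritant-sensing channel gene, stood at 13.9 and 17.9 and then 18.6 and 14.6.

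With TWEAK, the block held fewer peaks. There were 6034 and 6001 in the untreated libraries (mean 6017.5 ± 23.3, SD, n = 2) and 5660 and 4892 in the TWEAK libraries (5276 ± 543, n = 2). The groups did not overlap, and the difference of -741.5 had p = 0.333 by an exact two-sided permutation test, the smallest value that 2 against 2 libraries allow. As a share of the list the block had 2.90 and 2.62% untreated and 2.59 and 2.50% with TWEAK, again without overlap (p = 0.333, same exact test). The groups overlapped in this share with lists of equal length (difference -0.181 points) and among peaks stacked to 5 background levels or more (-0.132 points, exact p = 0.667 for each), and without untreated replicate 1 the difference was -0.0761 points. This permutation test cannot pass 0.05 with 2 libraries in each group. Whether the low count follows the low background of TWEAK replicate 2 was not tested; without that library the difference in peaks was -357.5. With lists of equal length it was -354 and at a deposited value of at least 5 it was -539, and in each the groups overlapped (exact p = 0.667). Among peaks above the 50th percentile it was -421 (exact p = 0.333), and among peaks stacked to 5 background levels or more it was 63.5, in the opposite direction.

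The segments did not share this difference equally. Segment 4 had 3451 ± 18.4 untreated and 2871 ± 397 TWEAK peaks without overlap (exact p = 0.333), and segment 5 had 157 and 183 untreated and 146 and 91 TWEAK peaks, also without overlap. The groups overlapped in segments 2 and 6. In segment 7 the order was the reverse, with 88 and 96 untreated and 99 and 97 TWEAK peaks. Numbers of peaks above the 75th percentile in the whole block overlapped between groups, at 473 and 532 untreated and 512 and 469 with TWEAK. The difference between segments was not itself tested.

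**Figure D4:**
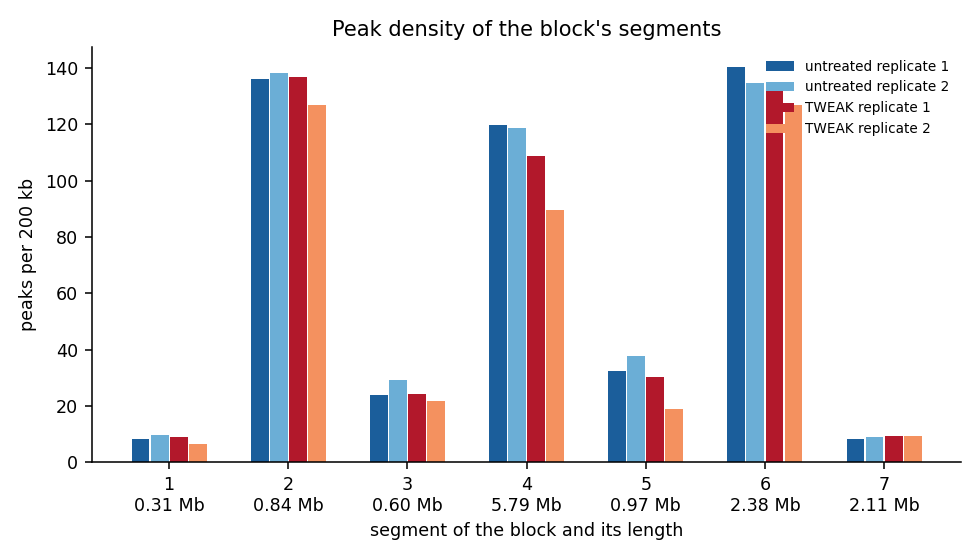
Peaks per 200 kb (vertical axis) in each of the 7 segments of the 8q block, with segment lengths under the axis, as 1 bar for each library. TWEAK replicate 2 is the lowest bar in segments 1 to 6, and the widest spread is in segment 4, from 120 to 89.5 peaks per 200 kb.

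By site, 39.99% of the block's sites had a peak in every library, compared with 42.9% elsewhere. At like height the order was mostly the other way. Where the site's best rank was below the 25th percentile, the shares were 5.07% in the block and 1.81% outside. Between the 25th and 50th they were 43.2 and 24.9%, and between the 50th and 75th 72.6 and 70.1%. Above the 75th they were 92.4 and 93.8%. Gained sites, those called in each TWEAK list but absent from the untreated lists, numbered 159 (2.15%), against 3.6% of all sites. Lost sites, the opposite pattern, numbered 381 (5.16%), against 3.79% of all sites. Sites held by 1 untreated and 1 TWEAK library, a pattern that splits both groups, numbered 244, 134, 233 and 130 for the 4 possible pairs. The gained count lay within the range of those pairs and the lost count above it. Outside the block the same pairs numbered 6670, 3516, 8347 and 4988. There the gained count of 10921 and the lost count of 11283 both lay above them. Among peaks stacked to 5 background levels or more, gained sites numbered 162 and lost sites 152. The shares over all sites at that cut were not computed, so neither count can be set against the genome. Gained sites above the 50th percentile in both TWEAK libraries numbered 11 (0.149% of the block's sites, 0.591% of all sites), and the corresponding lost sites numbered 17 (0.230%, 0.21% of all sites).

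Many of these sites had a close partner. A peak of the other group lay within 500 bp of 130 of the 159 gained sites (81.8%) and of 249 of the 381 lost sites (65.4%), against 26.7 and 33.0% outside the block. That left 29 gained sites (0.393% of the block's sites) and 132 lost sites (1.79%) with no such partner, against 2.67 and 2.52% of the sites outside. Counted this way, the share of lost sites in the block was below that outside, the reverse of the order over all lost sites. However, the block was chosen for its dense peaks. The median gap between peaks was 789 to 923 bp in it and 2801 to 3630 bp outside. A partner within 500 bp is more likely at such spacing whatever the treatment. These contrasts therefore give no result about gained or lost sites. One of the 5 highest-ranked gained sites, chr8:80290430-80290946, ended 2 bp before the highest-ranked lost site, chr8:80290949-80291459. The other 4 highest gained sites also lay close to an untreated peak, including those in introns of ZNF704 (chr8:80697751-80698253) and TPD52 (chr8:80103814-80104323). The other lost sites of this rule lay near LACTB2 (chr8:70661919-70662427), NCOA2, RDH10 and ZBTB10, and 3 of those 4 had a TWEAK peak within 298 bp.

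Among the 2952 shared sites, the rank was higher in both TWEAK libraries, with group means at least 10 points apart, at 115 (3.90%), against 7% of all shared sites. It was lower in both at 871 (29.5%), against 16% of all shared sites. The rank of a site is that of its highest peak, which need not be the same peak in each library. Sites over 1 kb long were 18.4% of those in the block and 4.75% of those outside. Sites with more peaks than libraries were 14.1 and 3.69%. With lists cut to equal length and ranked again, 152 of 2546 (5.97%) were higher, against 9.47% of all shared sites, and 553 (21.7%) were lower, against 12.6%. Pileup over background, compared without a minimum difference, gave the other order within the block. Both TWEAK values were above both untreated ones at 784 of the 2952 sites (26.6%, against 34.8% of all shared sites). They were below them at 392 (13.3%, against 12.2%). Set against all shared sites, fewer were thus higher and more were lower, as by rank. The lowest pileup over background in a list was 2.79 and 3.13 untreated and 3.04 and 3.79 with TWEAK. Of the 871 sites lower in rank, 335 were also lower in pileup without overlap, and at the others the groups overlapped in pileup. Lower sites were 427 of 1208 (35.3%) where the best rank was between the 25th and 50th percentiles and 391 of 1047 (37.3%) between the 50th and 75th, against 25.4 and 24.4% outside the block. Above the 75th they were 35 of 569 (6.15%), with 36 higher, against 5.87% lower outside, so the share fell among the tallest sites in both. A difference of 10 points is also harder to reach near the top of the scale.

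At promoters, TWEAK ranks were both higher at 5 of the 41 genes with a promoter peak in all libraries (12.2%), against 8.46% of all such genes, and both lower at 11 (26.8%), against 35.6%. The lower ones reached a difference of -8.49 points at FABP12, and they included the tall promoters of TPD52, PEX2, HEY1 and RPL7, where it was between -0.0179 and -0.00129 points. At each of the 11 the pileup over background overlapped between groups.

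The widest gap between groups was at LY96. It encodes MD-2, the partner of Toll-like receptor 4 that binds bacterial lipopolysaccharide. The rank percentile of its promoter peak was 38.0 and 51.0 in the untreated libraries and 89.9 and 93.7 in the TWEAK libraries. Its pileup over background was 5.58 and 8.05 untreated (mean 6.81 ± 1.75, n = 2) and 45.6 and 68.8 with TWEAK (57.2 ± 16.4, n = 2), a ratio of 8.39. The site, chr8:73991611-73992602, had the second largest upward difference in mean rank of the 115, and both TWEAK values lay far above both untreated ones. The peaks at the shared ELOC and TMEM70 promoter, at -19.0 kb from the LY96 start, stayed above the 99.9th percentile in all libraries.

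Other sites on the far side of LY96 showed the same order. The largest upward difference in the block was at chr8:74060557-74061489, an intergenic site 31.5 kb beyond the end of the gene, where the rank was 15.1 and 37.4 untreated and 75.4 and 77.4 with TWEAK. At 37.7 kb beyond the gene's end, chr8:74066824-74067401 went from 53.0 and 54.8 to 93.6 and 95.6. Of the 58 shared sites within 100 kb of LY96, 8 were higher and 8 were lower in both TWEAK libraries, 13.8% each way, against 3.90% higher and 29.5% lower in the block. These sites were picked out after their values were seen.

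**Figure D5:**
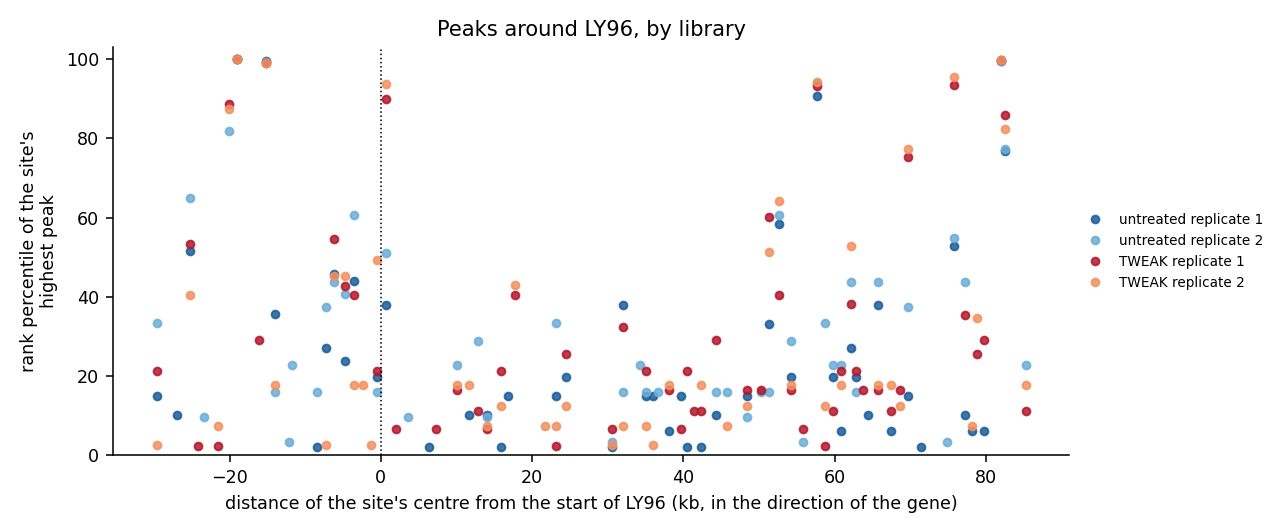
Rank percentile of the highest peak of each site in each library (vertical axis) against the distance of the site's centre from the start of LY96 in kb, negative upstream. Both TWEAK points lie far above both untreated points at the promoter and at 69.6 and 75.7 kb, while the tall peaks upstream, at the ELOC and TMEM70 promoter, coincide.

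The other promoters with higher TWEAK ranks had smaller differences. IL7, the gene of a lymphocyte growth factor, stood at 57.5 and 59.3 and then 68.8 and 69.98 by rank, and its pileup over background at 9.2 and 10.3 and then 16.0 and 20.6, a ratio of 1.87. CRISPLD1, which encodes a secreted protein, stood at 62.6 and 59.3 and then 68.8 and 71.4 by rank, a pileup ratio of 1.78. HNF4G, a nuclear receptor of the gut, was already tall, at 97.9 and 98.4 by rank and then 99.2 and 99.2, and its pileup over background went from 88.1 and 111 to 136 and 148, a ratio of 1.42. At KCNB2 the ratio was 1.38. For scale, the median pileup over background of all peaks outside the block, low ones included, had a ratio of 1.29. Each of these promoter comparisons has the same exact p of 0.333 for non-overlapping groups, the smallest this test allows.

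The largest downward differences in rank among shared sites were not at promoters. An intronic site of UBE2W, chr8:73837496-73838590, stood at 61.8 and 51.0 untreated and 16.4 and 12.3 with TWEAK. An intergenic site, chr8:75218953-75219651, stood at 60.2 and 40.8 and then 6.62 and 12.3. Neither site had a pileup over 10.6 times the background in any library.

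The block's sites differed in kind from those elsewhere. Promoters made up 2.76% of them, against 16.6% outside, and intergenic sites 67.0%, against 41.2%. The 200 bases around the centre of the best peak were 42.2% G or C, against 50.1%, and the block as a whole is 37.5% G or C, against 40.9% of the genome. The AP-1 consensus (TGACTCA or TGAGTCA, which are one site on its 2 strands) was found within 100 bp of the centre at 5.26% of the block's sites, against 9.01% of all sites. The NF-kB consensus was found at 2.91%, against 6.21% of all sites, and the CTCF core at 0.284%, against 1.97%. Matches are letters in a window and not evidence of binding.

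The contrast varied with rank. Above the 75th percentile, the AP-1 consensus was present at 12.7% of the 616 block sites and 11.2% of those outside, CTCF at 2.92 and 4.33%, and NF-kB at 4.71 and 7.44%. Below the 25th AP-1 was present at 3.33 and 6.11%. Gained sites of the block carried the NF-kB consensus at 6 of 159 (3.77%), against 20.3% of gained sites elsewhere, and the AP-1 consensus at 8 of 159 (5.03%), against 16.8%. Neither motif was found within 100 bp of the centre of the LY96 promoter peak, which says only that these letters are not in that window. Among the other sites with the largest upward differences, AP-1 was present at chr8:74066824-74067401 and at a site inside EYA1, and NF-kB at chr8:80346785-80347596 and chr8:73462721-73463246.

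Other long runs of dense bins gave a setting for these values. By number of sites the run inside the 8q block, from 70.2 to 81.0 Mb, had 7258 sites and came behind only 2 of 698, the runs further out on chromosome 8 (111.4 to 125.8 Mb, 10831 sites) and on chromosome 20 around ZNF217 (7368 sites). Its mean of 134 sites per bin was second to the 150 of the outer chromosome 8 run among 134 runs of at least 2 Mb. It differed from the run that holds ERBB2, the gene amplified in this line, in the height of its peaks, of which 7.67 to 9.48% were above the 75th percentile of their list, against 25.5 to 26.6% in the ERBB2 run. The outer chromosome 8 run resembled it, at 9.74 to 10.98%, and also in the share of shared sites lower in rank with TWEAK, 28.6% against 29.6%, where the ERBB2 and ZNF217 runs had 20.7 and 17.9%. Few tall peaks were also found in the run that holds MET, at 9.71 to 14.7%, with 19.6% of its shared sites lower in rank. The run that holds MYC, 1.8 Mb long, had 18.5 to 20.8% tall peaks and 24.0% lower in rank.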

How the data were processed

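ATAC-seq peak lists of 2 untreated and 2 TWEAK SKBR3 libraries were used. The authors trimmed reads with Trimmomatic, used Bowtie2 for mapping to hg38, dropped mitochondrial reads (Bamtools) and duplicates (Picard), and called peaks in each library alone with MACS2. Blacklisted regions had been removed. Tool versions and settings are not given in the sources used here. The deposited lists hold 195388 to 228734 peaks of 501 bp with 1 value, a −log10 p-value as the values show. That value was inverted as an upper Poisson tail over 1 background per list, which matched every value to within 0.00524. Reads were not used here, so the study's differential test could not be run. Depth is known only through these backgrounds, which limit the lowest callable pileup to 7 to 10 fragments.

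Peaks on chromosomes 1 to 22 and X were merged on 1 bp. Bins were 200 kb. Edges compared 600 kb on either side, with a 2-fold minimum. Genes were those of GENCODE release 44. Values are given for gene lists grouped by role and, by rule, the 5 gained, lost and shared sites with the highest lowest rank. The members and lists were chosen with earlier results of these data known. Exact permutation tests were two-sided. The steps were tested on simulated data. Python 3.11.15, pandas 2.3.3, NumPy 2.4.6 and SciPy 1.17.1 were used.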

Additional observations from a re-analysis of the deposited data

How the results depend on the processing

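With 2 libraries a group, the exact tests used could not pass 0.05 under any setting. Without each library in turn, the difference in peaks ran from -1125.5 (without TWEAK replicate 1) to -357.5 (without TWEAK replicate 2) and the difference in share from -0.348 to -0.0761 points, both keeping their sign. With the replicate number as a block, the paired differences averaged -741.5 peaks and -0.212 points, each with an exact sign-flip p of 0.5, the smallest 2 pairs allow; whether the numbers pair the samples is not stated. Among peaks stacked to 5 background levels or more the difference in peaks reversed to 63.5, the sites numbered 4788, gained sites 162, lost sites 152, and 36.2% of sites were in every library. At a deposited value of at least 5 the latter was 34.9%, and 70 shared sites were higher and 428 lower in rank with TWEAK.

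Joining peaks only on 250 bp gave 21.4% of sites in every library, 326 gained sites and a density ratio of 12.1 against 8.74. Without each library in turn these patterns need fewer libraries, so the ranges are 43.2 to 47.2% in every library, 457 to 608 gained, 716 to 1061 lost, 145 to 299 higher, 933 to 1410 lower and a density ratio of 9.32 to 10.1. Peaks above the 50th percentile alone gave a density ratio of 5.41. Ranked within chromosome 8, 59.6% of block peaks were below the 50th percentile against 75.4%. Windows of 50 bp and the whole peak gave 3.35 and 9.25% for AP-1 and 1.44 and 6.001% for NF-kB. The 7 edges became 5 with planned windows of 1 Mb and 10 with a planned 1.5-fold minimum. Alternatives added after the data were seen gave 14 edges with windows of 200 kb and 9 from peaks. They also gave 553 sites lower in rank with lists of equal length ranked again. Sites with no peak of the other group within 500 bp numbered 29 gained and 132 lost. These were 0.393 and 1.79% of the block's sites, against 2.67 and 2.52% outside, a smaller share in the block for both. Closely spaced peaks make such sites rarer in the block whatever the treatment. The 41 genes with a promoter peak ranged from 35 to 42. For gained, lost, higher and lower sites, shares outside the block or over all sites were computed only under the alternatives added afterwards. Under the other settings those counts cannot be set against the genome. Causes of these shifts were not tested beyond the fewer peaks or libraries each setting leaves.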

Other observations

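Gene bodies in the dense stretches differed in how their peak numbers divided by group. TPD52 held 160 and 156 peaks untreated and 173 and 167 with TWEAK across 196 kb, and its groups did not overlap. STAU2, an RNA transport gene in segment 4, held 204 and 190 untreated and 165 and 139 with TWEAK across 327 kb, also without overlap but in the other direction. ZNF704, across 246 kb, held 200 and 191 and then 197 and 206, and its groups overlapped. These genes were chosen after their values were seen, and with 2 libraries in each group no such difference can be tested below an exact p of 0.333.

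A shared site inside EYA1, chr8:71498461-71499119, directly follows the 136 kb peak-free interval. Its rank was 10.3 and 22.8 untreated and 60.2 and 64.1 with TWEAK, and it holds the AP-1 consensus within 100 bp of its centre.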
